A study of Mus musculus with 16 samples.

Results

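The miR-192, miR-194 and miR-215 microRNAs were followed through mouse dendritic cells that had been grown from bone marrow and exposed to quercetin, lipopolysaccharide or both. The family was taken as every row of the count table whose name begins with miR-192, miR-194 or miR-215 of the mouse, whichever arm of the hairpin it names. This gave 7 mature names of 1372 in the table: miR-215-5p, miR-215-3p, miR-194-1-3p, miR-194-5p, miR-194-2-3p, miR-192-5p and miR-192-3p. The family was selected on measured values, the higher level of miR-215-5p with quercetin, so the quercetin values of miR-215-5p, and those of all members in quercetin against control, are given as a description with no test. The rule does not name the quercetin comparison it rests on, so values of quercetin plus LPS against LPS may not be independent of it. Both comparisons of LPS share libraries with the quercetin comparisons, so tests of miR-215-5p in them are not independent of the choice either.

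Small RNA was sequenced from bone marrow dendritic cells of 4 wild-type C57BL/6 mice, with 1 library of each mouse in each of 4 groups. The labels give the animals as 8-week-old males for mice 1 to 3, except that 1 LPS label does not state the sex, and give 7 weeks for mouse 4. Cells of the quercetin plus LPS group received 25 µM quercetin, a flavonoid found in many plants, on culture days 5 and 7. On day 8 LPS, the Gram-negative endotoxin sensed by Toll-like receptor 4, was then added at 1 µg/mL for 6 h. Cells of the quercetin group received the same quercetin and no LPS, those of the LPS group only LPS, and control cells neither. In all groups red blood cells had been lysed with ACK buffer before culture, RNA was taken with miRNeasy and libraries were made with TruSeq Small RNA.

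MicroRNAs are cut from hairpin precursors whose 5′ and 3′ strands, the 5p and 3p arms, can each guide silencing of messenger RNAs, mainly through the seed, bases 2 to 8 of the arm. Members of this family lie in a pair of clusters, each with a miR-194 hairpin beside a miR-215 or a miR-192 hairpin. In liver, kidney and intestinal epithelium the family is abundant and depends on hepatocyte nuclear factors, and in human cells p53 has been described to induce it.

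The mature sequences are shown because they decide what the counts can tell apart: which arms share a seed and which can be assigned to 1 hairpin. All 7 names matched RefSeq entries on the GRCm38.p6 build, and the sequences below are from RefSeq, 5′ to 3′, with the seed in capitals.
miR-215-5p: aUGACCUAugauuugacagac
miR-192-5p: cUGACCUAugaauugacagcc
miR-194-5p: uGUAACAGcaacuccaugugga
miR-194-1-3p: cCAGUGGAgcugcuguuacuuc
miR-194-2-3p: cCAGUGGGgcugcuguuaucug
miR-215-3p: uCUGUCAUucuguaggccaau
miR-192-3p: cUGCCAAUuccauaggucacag

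miR-215-5p and miR-192-5p share the seed UGACCUA, which no other of 1679 mature mouse names in that table carries. Counted from 1 at the 5′ end, they differ at 3 of 21 bases, written from miR-192-5p to miR-215-5p as C1A, A12U and C20A, all outside the seed. The 3p arms of the miR-194 hairpins differ at 4 of 22 bases, from miR-194-2-3p to miR-194-1-3p G8A, U19C, C20U and G22C, of which G8A lies within the seed. miR-194-5p has the same sequence in both hairpins, so its single row cannot be assigned to either.

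The chromosome 1 cluster holds Mir194-1 (chr1:185313319-185313385) and Mir215 (chr1:185313581-185313692) on the plus strand, with 195 bases between them. Both lie within Iars2, a protein-coding gene on the minus strand, and within the antisense RNA gene 2010103J01Rik (chr1:185312187-185313803) on the plus strand, with Mir215 in an exon of that RNA. The chromosome 19 cluster holds Mir194-2 (chr19:6264643-6264728) and Mir192 (chr19:6264844-6264932) on the plus strand, with 115 bases between them and no other annotated gene over them. These positions are on GRCm38, whereas the deposited counts were made on mm9, so no position was read from the count table. miR-215-5p, miR-215-3p and miR-194-1-3p are therefore particular to the chromosome 1 cluster, and miR-192-5p, miR-192-3p and miR-194-2-3p to the chromosome 19 cluster.

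**Figure D1:**
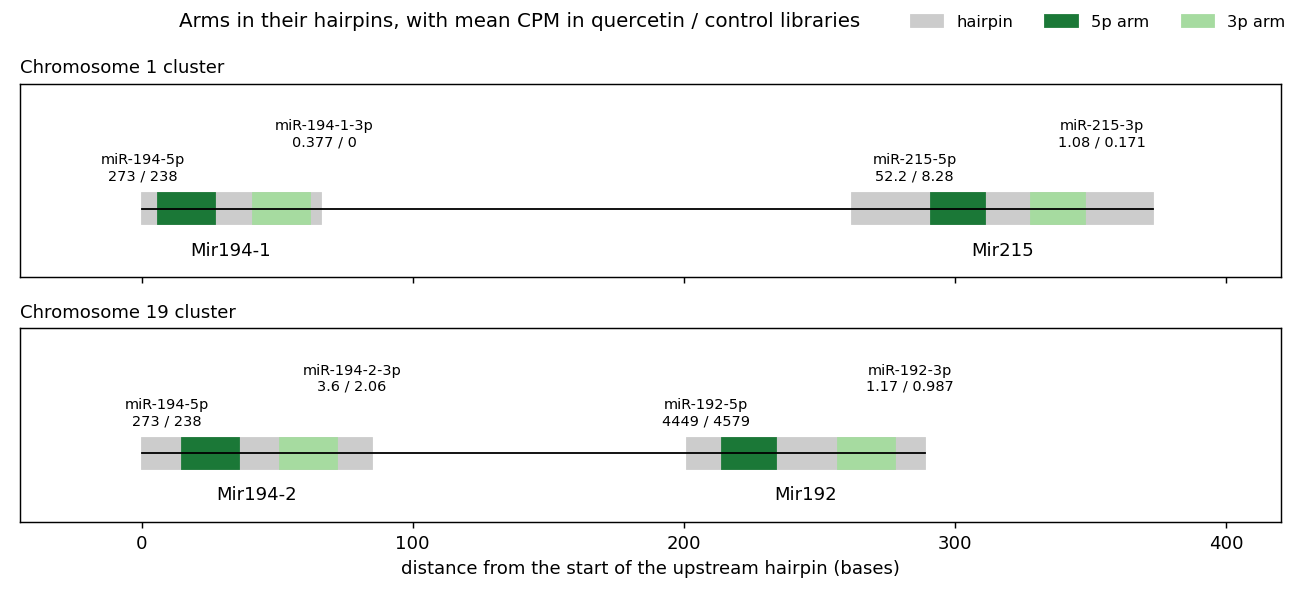
Map of both clusters, with distance in bases from the start of the upstream hairpin on the x axis, hairpins in grey, 5p arms in dark green and 3p arms in light green, and above each arm its mean level in quercetin and control libraries as CPM, the count scaled to library size. miR-215-5p stands at 52.2 against 8.28 CPM and miR-192-5p at 4449 against 4579 CPM, while miR-194-5p appears in both maps with 1 shared value.

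The libraries held between 6454535 and 13943904 counts and from 823 to 997 detected names. Those with quercetin were shallower, at 6454535 to 9035375 counts with quercetin plus LPS and 7694885 to 8563815 with quercetin, against 10096639 to 13943904 with LPS and 8660267 to 12529118 in controls. Levels are CPM, read counts relative to the library total, scaled by the trimmed mean of M values (TMM), with no correction for length, since the arms are all 21 or 22 bases long. How evenly different sequences are captured was not tested, so levels of different arms are set side by side as counts only. The 8 myeloid and dendritic cell markers, among them miR-223-3p, miR-142a-3p and miR-155-5p, were all measured and summed to 185245 to 317437 CPM with quercetin plus LPS, 171123 to 208560 with quercetin, 192692 to 253876 with LPS and 184367 to 221583 in controls. Most of this sum was miR-21a-5p. Without it the sum was 53323 to 101899 CPM with quercetin plus LPS, 51277 to 59360 with quercetin, 59093 to 91688 with LPS and 50896 to 82052 in controls. In whole cultures a higher level in the same cells and a larger share of cells that hold a miRNA cannot be told apart.

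Of the family, miR-192-5p made up nearly all counts in every group, and miR-215-5p was a small part whose size differed with quercetin. In shares of the family's counts, miR-192-5p took 92.4% ± 0.681 with quercetin plus LPS, 92.9% ± 1.29 with quercetin, 95.6% ± 1.43 with LPS and 94.9% ± 0.694 in controls (SD, n = 4 each). miR-194-5p took on average 6.25% with quercetin plus LPS, 5.85% with quercetin, 4.20% with LPS and 4.87% in controls. miR-215-5p took 1.22% ± 0.158 with quercetin plus LPS, 1.08% ± 0.186 with quercetin, 0.137% ± 0.0364 with LPS and 0.172% ± 0.0222 in controls. The ranks of the abundant arms were thus the same in all groups. The other 4 arms were counted at 75 or fewer counts in the LPS group and 126 or fewer in any group, so their levels carry a large counting error.

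miR-215-5p, the arm for which the family was chosen, stood 6.30-fold higher with quercetin than in controls and 9.15-fold higher with quercetin plus LPS than with LPS. In quercetin plus LPS libraries of mice 1 to 4 its level was 63.9, 67.6, 46.3 and 88.5 CPM, from 621, 582, 356 and 658 counts. In quercetin libraries it was 49.9, 66.4, 32.7 and 60.0 CPM, from 406, 634, 288 and 500 counts. In LPS libraries it was 5.56, 8.47, 6.03 and 9.08 CPM and in control libraries 8.43, 10.1, 7.79 and 6.84 CPM, from 62 to 109 counts. Every library with quercetin lay above every library without it, and the lowest value of each quercetin group was that of mouse 3.

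The fitted difference of miR-215-5p on the log2 scale was 2.66 ± 0.28 (SE, edgeR, n = 4 libraries each) for quercetin against control, and within the mice it spanned 2.04 to 3.10. For quercetin plus LPS against LPS it was 3.19 ± 0.28, and within the mice 2.90 to 3.47. Ordered by this difference from the top, miR-215-5p was at place 8 of 568 miRNAs in the first comparison and at place 4 in the second. Ranked by mean level among the 1372 names, it was at place 162 with quercetin plus LPS and 190 with quercetin, against place 331 with LPS and 323 in controls. Between the quercetin effects with and without LPS the difference was 0.54 ± 0.37, also given without a test.

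**Figure D2:**
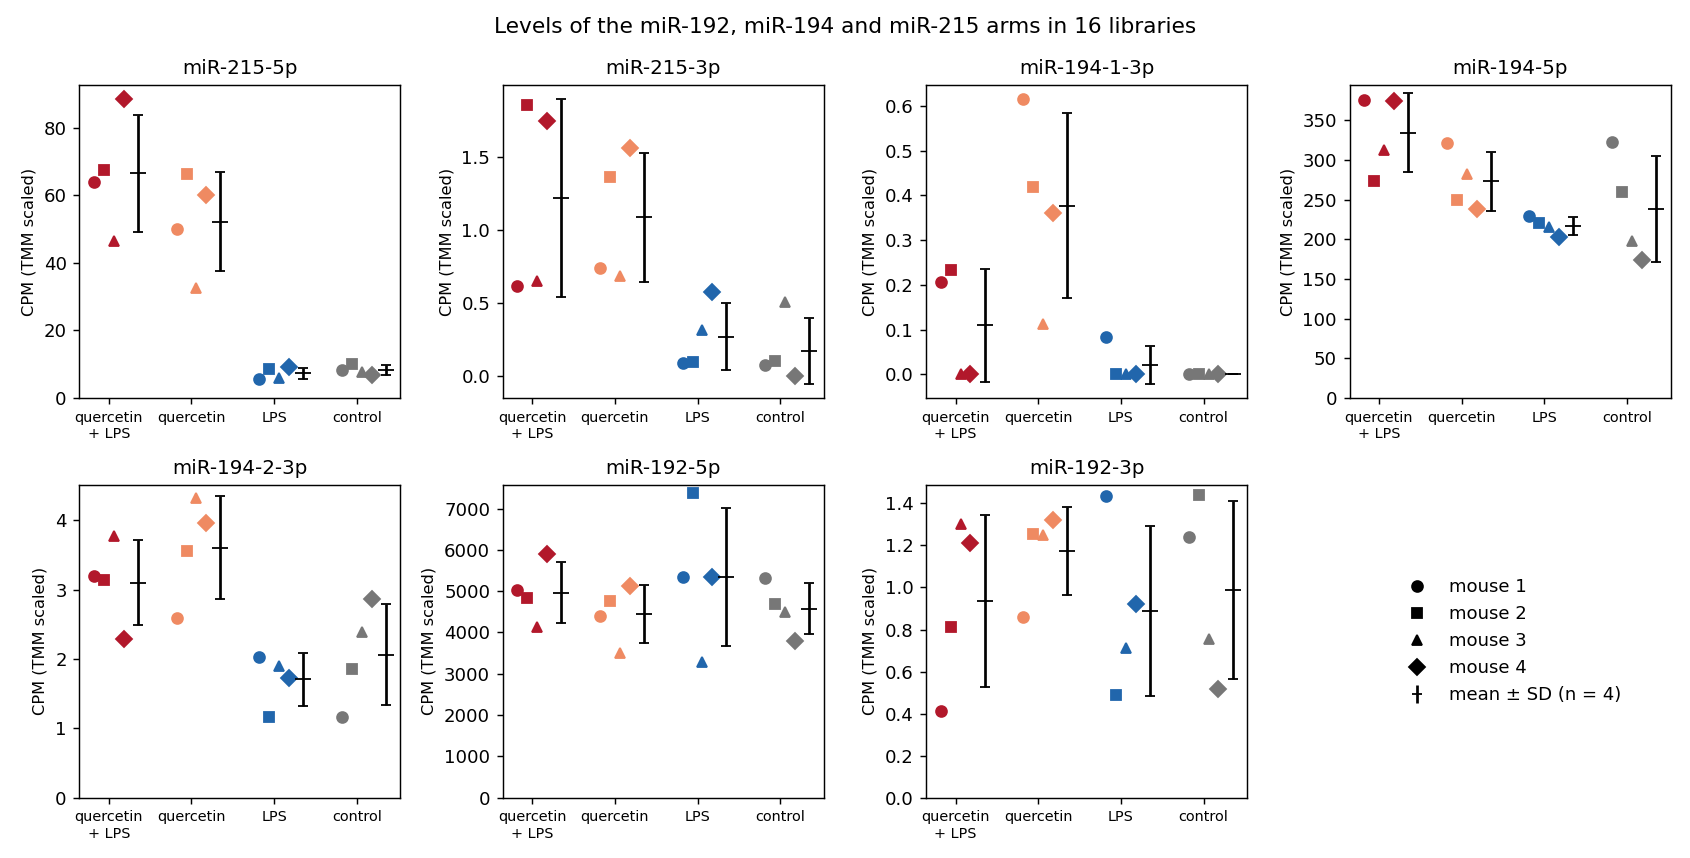
Level of each of the 7 arms in CPM with TMM scaling on the y axis of its own panel, for 4 libraries of each group, with the symbol giving the mouse and the bar the mean ± SD (n = 4). miR-215-5p is at 32.7 to 88.5 CPM in the 8 libraries with quercetin and at 5.56 to 10.1 CPM in the 8 without, while the groups overlap for miR-192-5p and miR-192-3p.

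miR-215-3p, the opposite arm of the same hairpin, was rare and was also higher in the libraries with quercetin. It had 6, 16, 5 and 13 counts with quercetin plus LPS (1.22 ± 0.677 CPM) and 6, 13, 6 and 13 with quercetin (1.08 ± 0.442 CPM). It had 1, 1, 4 and 5 counts with LPS (0.268 ± 0.230 CPM) and 1, 1, 4 and 0 in controls (0.171 ± 0.225 CPM). All libraries with quercetin were above all those without, with mice 2 and 4 highest in both quercetin groups. In summed counts per total counts, 38 against 6 gave a ratio of 8.27 for quercetin over control (exact 95% interval 3.47 to 23.9, counting error only). With 40 against 11 counts it was 5.68 for quercetin plus LPS over LPS (2.86 to 12.3).

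miR-215-3p passed the filter on low counts only through the groups with quercetin, so that its presence among the tested miRNAs already favours a difference. Its fitted values are therefore given without a test. In quercetin plus LPS against LPS its log2 difference was 2.18 ± 0.70, and 2.25 ± 0.68 with no filter. This arm comes from the same precursor as miR-215-5p, so it is not a separate instance of the pattern for which the family was picked. For quercetin against control its log2 difference was 2.77 ± 0.77. That value spanned 2.32 to 3.97 as single libraries were left out, the highest without control mouse 3, which held 4 of the 6 control counts.

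miR-194-1-3p, the arm that identifies the other hairpin of the chromosome 1 cluster, was near the limit of detection. It was counted 2, 2, 0 and 0 times with quercetin plus LPS, 5, 4, 1 and 3 times with quercetin, once in mouse 1 and in no other mouse with LPS, and in no control library. It did not pass the filter, and a fit with no filter gave 1.97 ± 1.29 on the log2 scale for quercetin plus LPS against LPS (edgeR adjusted p = 0.437), a value that depends on the prior count. Set against a floor of 3 counts over the control group, the 13 counts with quercetin were 5.66-fold higher per total count. This value leaves out the counting error of the 13 and is not a lower limit. For 4 counts with quercetin plus LPS against 1 with LPS the ratio was 6.24, with an exact 95% interval of 0.618 to 307 that includes equality.

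Among the 3p arms of both miR-194 hairpins, miR-194-1-3p made up 4 of 108 counts with quercetin plus LPS, or 3.70% (exact 95% interval 1.02 to 9.21%). With quercetin it made up 13 of 139, or 9.35% (5.07 to 15.5%). With LPS it made up 1 of 76, or 1.32% (0.0333 to 7.11%), and in controls 0 of 85, which allows a share of up to 3.53% by the floor of 3 counts and 4.25% by the exact interval. The chromosome 19 hairpin thus gave most miR-194 3p counts in all groups, and these shares were computed over pooled libraries, so their intervals leave out the spread between mice.

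miR-194-5p, which both clusters encode, rose with quercetin plus LPS over LPS and differed little between quercetin and control. Its level was 376, 273, 313 and 374 CPM in quercetin plus LPS libraries of mice 1 to 4, against 229, 221, 215.3 and 203 CPM in LPS libraries. These groups did not overlap, and the value with quercetin was the higher in 4 of 4 mice. The log2 difference was 0.62 ± 0.21, 1.54-fold, with an adjusted p of 0.0440 by edgeR's quasi-likelihood test and the Benjamini-Hochberg adjustment over 568 miRNAs. The call was lost with no filter on low counts (0.73, edgeR adjusted p = 0.0987), where 8.02% of the 1372 names were called, and without the 4 libraries of mouse 4 (0.53, edgeR adjusted p = 0.183).

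Without LPS, miR-194-5p was at 321, 250, 282 and 238 CPM with quercetin, against 322, 260, 197 and 174 CPM in controls. These groups overlapped, 2 of 4 mice were higher with quercetin, and the log2 difference was 0.19 ± 0.21. Whether the quercetin difference of miR-194-5p itself differed with LPS was tested as an interaction, which gave 0.43 ± 0.30 (edgeR adjusted p = 0.893) and did not pass.

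miR-194-2-3p, the opposite arm from the chromosome 19 hairpin, was at 3.19, 3.14, 3.77 and 2.29 CPM with quercetin plus LPS, against 2.02, 1.17, 1.90 and 1.72 CPM with LPS. The groups did not overlap and all 4 mice were higher with quercetin, but the log2 difference of 0.85 ± 0.31 missed the threshold (edgeR adjusted p = 0.0548). It passed under other scalings, with DESeq2 and without some single libraries, with edgeR adjusted p-values between 0.0181 and 0.0853 as each library was left out. With quercetin alone it was at 2.58, 3.56, 4.31 and 3.96 CPM, against 1.16, 1.85, 2.39 and 2.86 CPM in controls. Those groups overlapped, although each mouse was higher with quercetin, and the log2 difference was 0.81 ± 0.31.

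The arms of the miR-192 hairpin, next to Mir194-2 on chromosome 19, did not differ beyond the spread between mice. miR-192-5p was at 5017, 4823, 4132 and 5897 CPM with quercetin plus LPS and at 4403, 4758, 3506 and 5128 CPM with quercetin. It was at 5353, 7372, 3277 and 5351 CPM with LPS and at 5319, 4700, 4494 and 3803 CPM in controls. The groups overlapped throughout, with the widest spread among the LPS libraries. Its log2 difference was -0.10 ± 0.22 for quercetin plus LPS against LPS (edgeR adjusted p = 0.802) and -0.04 ± 0.22 for quercetin against control. Both signs turn with upper quartile scaling (0.19 and 0.17) and with library size scaling (0.20 and 0.08). The first also turned with RLE (0.04), no filter (0.02) and DESeq2 (0.04), and stayed negative with limma-voom (-0.06). As single libraries were left out, the first spanned -0.11 to 0.26 and the second -0.14 to 0.10, so neither sign is settled.

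miR-192-3p averaged 0.934 ± 0.408 CPM with quercetin plus LPS, 1.17 ± 0.209 with quercetin, 0.888 ± 0.404 with LPS and 0.987 ± 0.424 in controls (SD, n = 4 each), from 4 to 17 counts a library. Its log2 difference was 0.05 ± 0.45 for quercetin plus LPS against LPS (edgeR adjusted p = 0.955) and 0.24 ± 0.44 for quercetin against control. With a standard error of that size, a change like that of miR-194-5p could not have been seen in this arm.

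Of the 4 tested arms outside the miR-215 hairpin, 1 rose past the threshold in quercetin plus LPS over LPS (miR-194-5p), 2 with DESeq2, where miR-194-2-3p joined it, and 1 with limma-voom. In that comparison 8.63% of all 568 miRNAs were higher past the threshold and 22.9% in either direction. Groups of 4 libraries without overlap were found for 4 of 6 members (miR-215-5p, miR-215-3p, miR-194-5p and miR-194-2-3p), all higher, against 6.87% of all miRNAs. These counts are a description, since miR-215-5p chose the family and miR-215-3p entered the test only through its high groups. For quercetin against control, 2 of 6 members (miR-215-5p and miR-215-3p) were higher without overlap, against 10.4% of all miRNAs, and 6.87% of all were higher past the threshold (15.8% in either direction). Nothing is read from these counts, since the family was picked for a rise with quercetin. The median log2 difference over all 568 miRNAs was -0.13 for quercetin plus LPS against LPS, and 0.15 with library size scaling, a shift of the scale that moves the members with it.

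**Figure D3:**
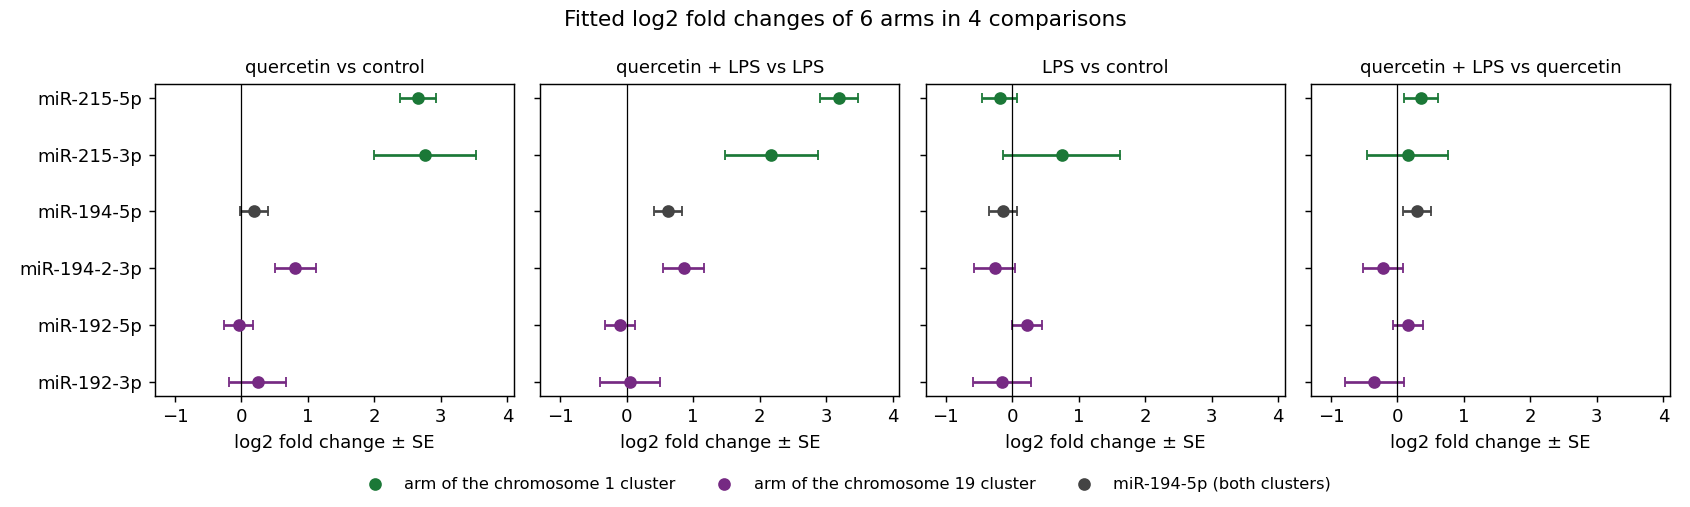
Fitted log2 fold change ± SE on the x axis for the 6 arms that passed the filter on low counts, in 4 comparisons of 4 libraries each, with colour giving the cluster of the arm. miR-215-5p lies at 2.66 and 3.19 in the comparisons of quercetin, miR-194-5p at 0.19 and 0.62, and in the comparisons of LPS no arm passed the test.

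LPS gave no change that the test could call in any arm, whether or not quercetin had been given before. In LPS against control the 6 tested members had log2 differences from -0.26 for miR-194-2-3p to 0.75 ± 0.88 for miR-215-3p. Of these 6 members, 0 passed with edgeR, DESeq2 or limma-voom, 0 had an unadjusted p under 0.05 with any of them, and the smallest unadjusted edgeR p was 0.333. The groups of 4 overlapped for all 6, where 3.17% of miRNAs did not overlap. Of all miRNAs 0.528% were called in this comparison, which is 3 of 568, so few changes were found anywhere at this time point. For miR-215-5p the log2 difference was -0.19 ± 0.27 (edgeR adjusted p = 0.999), with 1 of 4 mice higher. Since these libraries are shared with the comparisons of quercetin, that p is not independent of how miR-215-5p was chosen.

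In quercetin plus LPS against quercetin, 0 of 6 members passed with edgeR, DESeq2 or limma-voom, and 0 had an unadjusted p under 0.05. Of all miRNAs 0.352% were called, and 3.7% had groups without overlap, against 0 of the 6 members. miR-215-5p was higher in 4 of 4 mice, by 0.35 ± 0.26 on the log2 scale (edgeR adjusted p = 0.709), and the groups overlapped. Its choice for high values with quercetin bears on these same libraries, so nothing is concluded from that p. miR-194-5p was also higher in 4 of 4 mice, by 0.29 ± 0.21 (edgeR adjusted p = 0.709). The same held for miR-192-5p, higher in 4 of 4 mice by 0.16 ± 0.22 (edgeR adjusted p = 0.838). None of these differences exceeded the spread between libraries. In the interaction 0 of the 4 tested arms outside the miR-215 hairpin and 0.0% of all miRNAs were called. Of 568 miRNAs 26 had an unadjusted p under 0.05 with edgeR, 29 with DESeq2 and 20 with limma-voom, of which 0 also passed after adjustment.

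Because miR-215-5p and miR-192-5p share their seed, their counts were also put together as the pool of that seed. miR-215-5p made up 1.31% ± 0.160 of the pool with quercetin plus LPS and 1.14% ± 0.185 with quercetin, against 0.143% ± 0.0395 with LPS and 0.181% ± 0.0234 in controls (SD, n = 4 each). By library the share was 1.11 to 1.48% with quercetin plus LPS and 0.923 to 1.38% with quercetin, against 0.104 to 0.184% with LPS and 0.158 to 0.214% in controls. Shares within a library do not depend on scaling, and those with quercetin all lay above those without.

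The pool as a whole was 5034 ± 744 CPM with quercetin plus LPS, 4501 ± 708 with quercetin, 5346 ± 1673 with LPS and 4587 ± 625 in controls. Per count of miR-215-5p there were 75.9 counts of miR-192-5p with quercetin plus LPS and 87.2 with quercetin, against 715 with LPS and 551 in controls (geometric means). The level of the seed therefore followed miR-192-5p in all groups.

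**Figure D4:**
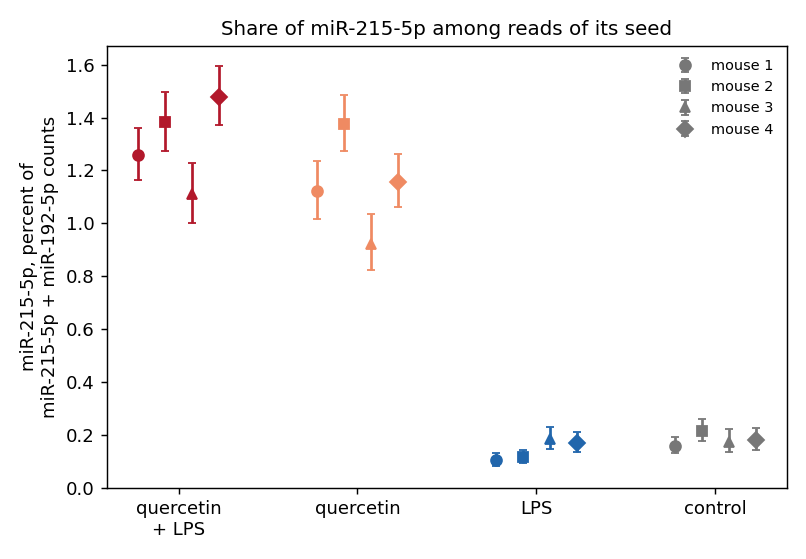
Share of miR-215-5p, in percent of the counts of miR-215-5p and miR-192-5p together, on the y axis for each of 16 libraries by group, with Wilson 95% intervals that cover counting error only and symbols for the mouse. The 8 libraries with quercetin are at 0.923 to 1.48% and the 8 without at 0.104 to 0.214%.

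Ratios within a library were tested for 3 pairs of members in 3 comparisons by two-sided exact permutation of 4 against 4 libraries, which cannot give a p under 0.0286. None of the 9 passed after Benjamini-Hochberg adjustment, with adjusted p-values of 0.771 to 0.857. A single ratio at the smallest p would have had an adjusted p of 0.257, so these adjusted values say little about whether the ratios differed. miR-194-5p, which both clusters encode, over miR-192-5p differed by 0.67 on the log2 scale between quercetin plus LPS and LPS (exact permutation p = 0.0857, adjusted p = 0.771), higher in 4 of 4 mice. Within the miR-192 hairpin the 5p arm outnumbered the 3p arm by 5378 to 1 with quercetin plus LPS, 3628 with quercetin, 5874 with LPS and 4704 in controls (geometric means). For miR-215 the 5p arm outnumbered the 3p arm by 57.2 to 1 with quercetin plus LPS, 46.9 with quercetin, 28.2 with LPS and 57.0 in controls, and single-library values rest on as few as 0 counts of the 3p arm.

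The 5 miRNAs whose level most resembled that of miR-215-5p over the 16 libraries were miR-451a (Pearson r = 0.96 on log2 CPM), miR-5121 (0.93), miR-677-5p (0.92), miR-3057-5p (0.90) and miR-582-3p (0.89). Of the family itself, miR-215-3p had r = 0.86, miR-194-5p 0.68, miR-194-2-3p 0.67, miR-192-3p 0.16 and miR-192-5p 0.06. These values are descriptions over libraries of the same 4 mice, which fall into separate sets with and without quercetin. miR-451a, a marker of erythroid cells that is made from a hairpin beside miR-144, was at 216, 96.0, 75.5 and 170 CPM with quercetin plus LPS and 157, 119, 85.3 and 152 CPM with quercetin. It was at 18.96, 16.7, 15.5 and 17.5 CPM with LPS and 24.9, 13.1, 16.7 and 17.5 CPM in controls. In both quercetin groups mouse 3 had the lowest value, as for miR-215-5p. The same held for miR-192-5p (4132 CPM with quercetin plus LPS, 3506 with quercetin), so a low mouse 3 is not particular to this pair. The highest miR-451a value was that of mouse 1 in both groups. For miR-215-5p it was that of mouse 4 with quercetin plus LPS and of mouse 2 with quercetin.

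**Figure D5:**
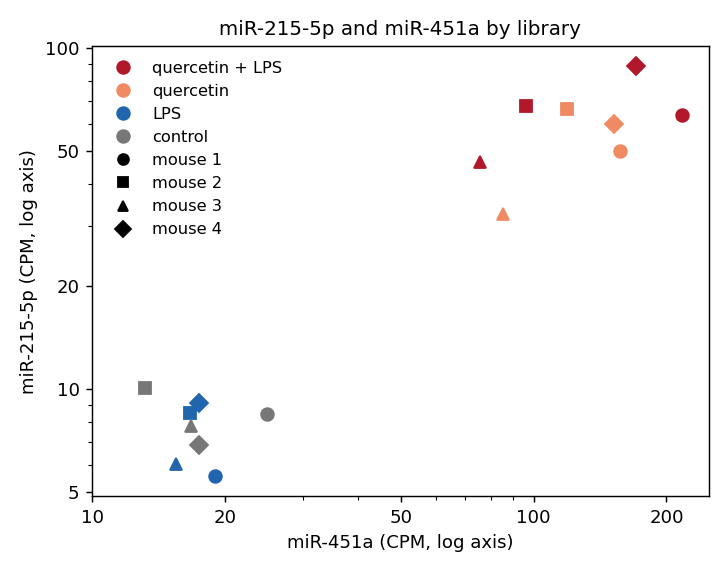
Level of miR-215-5p on the y axis against that of miR-451a on the x axis, both in CPM on log axes, for 16 libraries with colour for the group and symbol for the mouse. Libraries with quercetin are at 75.5 to 216 CPM of miR-451a and those without at 13.1 to 24.9 CPM, with no library in between.

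Marker lists of other cell types moved with quercetin as well, and their part in the family's values was not tested. Of 6 erythroid markers 5 rose in both comparisons of quercetin, the exception being miR-486a-3p, where 8.63% (with LPS) and 6.87% (without) of all miRNAs rose. miR-486a-5p and miR-486b-5p carry the same counts, so these are 5 distinct rows, of which 4 rose. Their sum, with the shared counts taken once, was 1268 to 3041 CPM with quercetin plus LPS and 2585 to 6649 with quercetin, against 443 to 1409 with LPS and 398 to 893 in controls. Of 11 epithelial markers 3 rose with quercetin plus LPS over LPS, namely miR-203-3p by 2.03 (edgeR adjusted p = 3.4e-04), miR-96-5p by 1.29 and miR-182-5p by 1.01 on the log2 scale, and 2 of them, miR-182-5p and miR-96-5p, with quercetin over control. miR-200c-3p (-0.58 in both comparisons) and miR-429-3p (-0.41 with LPS, -0.18 without) did not pass. The sum of the list was 6140 to 11957 CPM with quercetin plus LPS and 6207 to 8388 with quercetin, against 2599 to 6786 with LPS and 2410 to 4511 in controls. miR-182-5p made up most of it, and without it the sum was 545 to 1598 CPM with quercetin plus LPS and 589 to 856 with quercetin, against 363 to 1144 with LPS and 354 to 997 in controls, with overlap.

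Of 6 tested markers of fibroblasts and smooth muscle 4 rose with quercetin plus LPS over LPS (6 with DESeq2), where 8.63% of all miRNAs rose. With quercetin over control 0 passed with edgeR, DESeq2 or limma-voom, and the count at an unadjusted p under 0.05 was 0, 0 and 1 with these tools. In LPS against control the median log2 difference of the 6 was -1.90. There 0 passed, and 3, 4 and 1 were lower at an unadjusted p under 0.05 with these tools. The rise over LPS is thus also measured against lower LPS values. The list summed to 97.3 to 4472 CPM with quercetin plus LPS and 84.6 to 1241 with quercetin, against 32.8 to 78.3 with LPS and 24.8 to 455 in controls. Among 8 myeloid markers miR-223-5p alone passed, lower by 0.98 with quercetin than in controls, where 8.98% of all miRNAs fell. Between quercetin plus LPS and LPS it differed by 0.005. It was also lower by 0.74 with LPS than in controls, which did not pass (edgeR adjusted p = 0.479), so the controls stood apart from the other groups. Of 2 lymphocyte markers 0 passed in either comparison with edgeR, DESeq2 or limma-voom, also at an unadjusted p under 0.05. No marker of these lists was at 0 in all libraries. How the erythroid, epithelial and fibroblast values relate to those of the family was not tested.

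miRNAs linked to p53, a described regulator of the family, had calls in both directions. Of 14 p53-linked miRNAs 13 were tested: with quercetin plus LPS against LPS 2 rose and 3 fell, and with quercetin against control 0 rose and 3 fell, where 8.63% and 6.87% of all miRNAs rose and 14.3% and 8.98% fell. The list medians were -0.36 and -0.35, against -0.13 and -0.05 for all miRNAs. The falls were all of the miR-34b/c cluster, a direct target of p53: with quercetin plus LPS miR-34c-3p fell by 1.59 ± 0.25 (edgeR adjusted p = 3.5e-04) and reached 3.30 ± 0.714 CPM, against 9.98 ± 1.06 CPM with LPS. miR-34b-3p was lower by 0.95 and miR-34c-5p by 0.90 on the log2 scale. The rises were miR-143-3p (5.00 ± 1.34, edgeR adjusted p = 0.0147) and miR-145a-5p (4.14 ± 1.08, edgeR adjusted p = 0.0127), both also on the fibroblast list, with SDs above their means across the quercetin plus LPS libraries. In both comparisons of LPS 0 of the list passed with edgeR, DESeq2 or limma-voom, with 0 at an unadjusted p under 0.05 by edgeR and limma-voom and 1 in each comparison by DESeq2.

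Of 9 miRNAs of liver and intestine other than the family, 5 were tested. With quercetin plus LPS over LPS, 1 rose, where 8.63% of all miRNAs rose, and 2 rose and 1 fell with DESeq2 and 1 each way with limma-voom. By edgeR it was miR-148a-3p, by 0.69 ± 0.21 (edgeR adjusted p = 0.0286), at 17029 ± 3340 CPM against 10558 ± 1849 CPM with LPS. miR-122-5p, the main miRNA of hepatocytes, was at 16.1 ± 8.50 against 6.39 ± 0.971 CPM and missed the threshold (log2 difference 1.33 ± 0.49, edgeR adjusted p = 0.0588). miR-31-5p was at 6.02 ± 6.09 against 16.3 ± 3.27 CPM, a log2 difference of -1.43 ± 0.53 (edgeR adjusted p = 0.0588), and at -1.33 ± 0.53 for quercetin against control. With quercetin against control 0 of the 5 passed with edgeR, DESeq2 or limma-voom, with an unadjusted p under 0.05 for 3 by edgeR and limma-voom and 5 by DESeq2. The list median was 0.64 in the comparison with LPS and 0.49 in that without.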

How the data were processed

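Mature miRNA reads were counted by the authors, and the deposited table gives counts per mature name that are not normalised. Per the submitters' processing notes they used cutadapt and the build mm9. The aligner, and how reads fitting more than 1 name were counted, are not given in the sources used here. It lists 1377 names on 1381 rows. Where a name stood on 2 rows, as 4 did, its counts were summed, and 5 rows were left out: 1 with text among its counts and 4 whose quercetin counts look exchanged with a neighbour. This left 1372 names. No row next to a member held more than 60 counts in a library, and no exchange was seen among them. For rare arms this check cannot decide, since an exchange between rows of similar counts without quercetin would not show. Below miR-192-3p, which had 4 to 17 counts a library, miR-6481 averaged 11.5 counts in controls and 12.0 with LPS. With quercetin it averaged 39.0 counts, and 40.75 with quercetin plus LPS.

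In R 4.3.3 the edgeR package (4.0.16) dropped low counts with filterByExpr, leaving 568 miRNAs, and scaled with TMM. A single quasi-likelihood model covered the 4 groups and 16 libraries. The p-values of a comparison were adjusted by Benjamini-Hochberg over its 568 miRNAs and read at 0.05. The SE is the log2 fold change divided by the root of the F statistic. Procedures were tested on simulated data. Likeness was computed on log2 CPM (prior count 2), and ratios between members a pseudocount of 0.5. Alternatives were DESeq2 1.42.0, limma-voom (limma 3.58.1), other scalings, no filter, the mouse as a block, each library left out and, added after the data were seen, all 4 libraries of mouse 4 left out and exact intervals for low counts.

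The members and marker lists were chosen with earlier results of these data known. Named miRNAs are the members, the 5 most like miR-215-5p and the rows beside members. Up to 4 called members of each list, in a comparison not used for the choice, are named as well. miR-122-5p, miR-31-5p, miR-200c-3p, miR-429-3p, miR-486a-3p, miR-21a-5p, the erythroid copies, and the calls of quercetin against control were named after their values were seen. The rule does not say which quercetin comparison it used, so miR-215-5p was tested in neither, nor was miR-215-3p, which passed the filter through its high groups. Equal numbers were taken to mark 1 mouse, as the series names 4 mice. Deviations from group means correlated at a mean r of 0.14 over 24 same-mouse pairs (-0.47 to 0.65) and -0.04 over 72 others (-0.58 to 0.67). An r over 0.1 was found for 11 of the same-mouse pairs and 21 of the others. The counts alone therefore do not settle the pairing, on which all values within mice rest. A chi-square comparison of counts found no near-duplicate libraries within groups. Since nothing says that cultures of 1 mouse were repeated, p-values measure the spread between libraries of different mice, in which mouse and culture are mixed. The main model and the permutation of ratios did not use the pairing by mouse. Intervals cover counting error only.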

Additional observations from a re-analysis of the deposited data

Results flagged for a closer look

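In 40 sets of 4 libraries, 1 for each measure and group, the gap between the most distant library and its nearest neighbour was compared with the whole range. It exceeded Dixon's 95% critical value in 2 sets, where chance alone gives about 1 in 20. miR-194-1-3p in the LPS group is not counted among the 2: its only count, in mouse 1, makes the gap the whole range. The level of miR-192-3p in the quercetin group had a gap of 0.843 of its range: mouse 1 was at 0.861 CPM and the others at 1.25 to 1.32 CPM, from 7 to 12 counts. The log2 ratio of miR-194-5p over miR-194-2-3p in the LPS group had a gap of 0.947 of its range, with mouse 2 at 7.50 and the others at 6.79 to 6.83; that library held 12 counts of miR-194-2-3p.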

How the results depend on the processing

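Of the recomputed values 970 stayed as reported, 22 moved, 16 passed only under the alternative, 6 no longer passed and none that was called turned in direction. The 16 were all of miR-194-2-3p in quercetin plus LPS against LPS. Of the 6, in the same comparison, 2 were of miR-194-5p. The other 4 were of miR-215-3p, which is not read as a test, so they are not lost calls. For miR-215-5p the log2 difference of quercetin against control was 2.50 to 2.88 under all other settings and 2.52 to 2.88 as single libraries were left out, and for quercetin plus LPS against LPS 3.15 to 3.46 and 3.26 to 3.48. In quercetin plus LPS against LPS, miR-194-2-3p passed with RLE (0.99), upper quartile (1.10) and library size scaling (1.11) and with DESeq2 (0.99), and spanned 0.86 to 1.19 as libraries were left out, passing in 12 of 16 cases. miR-194-5p did not pass without a filter (0.73) or without mouse 4 (0.53), and spanned 0.70 to 0.91 as libraries were left out. miR-215-3p spanned 2.04 to 2.89, and could not be fitted without mouse 4, where it fell under the filter. With the mouse as a replicate block, miR-194-5p differed by 0.62 (edgeR adjusted p = 0.0386) and miR-194-2-3p by 0.86 (0.0586), and no call of a member changed. Without mouse 4, 46 miRNAs were called for quercetin against control, where 90 are reported (54 to 99 as libraries were left out), 79 for quercetin plus LPS against LPS, where 130 are reported (80 to 141), 0 for LPS against control, where 3 are reported (0 to 5), and 1 for quercetin plus LPS against quercetin, where 2 are reported (2 to 7). For LPS against control, library size scaling gave 1 and DESeq2 6, and for quercetin plus LPS against quercetin DESeq2 gave 4. The cause of these changes was not tested. Leaving out single libraries shifted the median of all miRNAs in quercetin plus LPS against LPS to as much as 0.08. Depth limits miR-215-3p, miR-194-1-3p and miR-192-3p most, with 0 to 17 counts a library.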
